A study of Mus musculus with 20 samples.

Results

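The genes described here are 52 mouse genes of ribosome production: the transcription factor gene Myc and 51 genes of the nucleolus, of RNA polymerase I and of the assembly of the small and large ribosomal subunits. They were taken by name from a list, by a rule that uses no measured value, and matched by symbol. The list itself was chosen with earlier results of these data known. All 52 were found among the 49671 genes of the table and all 52 were abundant enough to be tested, among 13290 genes tested in all. RNA was sequenced from 20 libraries of cultured mouse T cells: 5 of CD8 cells at week 4, 5 of CD8 cells at week 1, 5 of CD4 cells at week 3 and 5 of CD4 cells at week 1.

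The labels give 1 protocol for all 4 groups. CD4 or CD8 T cells were enriched from spleen and inguinal lymph nodes and stimulated with plate-bound antibodies (CD3 and CD28) in the presence of 1 ng/mL of IL-2. Expansion followed, in 50 ng/mL of IL-15 plus 10 ng/mL of IL-7, for 25 days (CD8 week 4), 18 days (CD4 week 3) or 4 days (both week 1 groups). Every library came from cells sorted as CD44+ CD62L+, to a purity above 97%. The labels name polyclonal T cells of albino B6 mice, given 72 h of stimulation, and transgenic T cells of Marilyn-BLITC and MataHari-BLITC mice, given 24 h. They give neither the origin of a library nor the age or number of the mice, so a p-value measures the spread between these libraries, which may be technical. Without an unstimulated or freshly isolated group, levels can be compared only between lengths of culture and between cell types.

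Ribosome production begins in the nucleolus, where RNA polymerase I transcribes the precursor of the large ribosomal RNAs. Small nucleolar ribonucleoproteins modify the precursor, a complex called the small subunit processome folds and cuts it, and further factors assemble the small and the large subunit and pass them to the cytoplasm. MYC is a transcription factor that activates many genes of this chain; T cells induce it when their antigen receptor is triggered, and IL-2 family cytokines help to keep it on while the cells grow and divide. MYC binds DNA together with MAX, by preference at the E-box CACGTG.

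The table of promoter sequences (RefSeq, GRCm38.p6; 250 bases before to 50 after each start) held 44 of the 52 genes, so the promoters of Rrp12, Myc, Gnl2, Npm1, Fbl, Bop1, Rrs1 and Mak16 were not analysed here. CACGTG, which reads the same on both strands, lay in the window of 11 of the 44 genes (25%), against 8.09% of the 27025 gene symbols in that table. Its first base lay before the start in Imp4 (by 121 bases) and Nop2 (by 60 bases), and after it, by at most 40 bases, in Pes1, Wdr43, Nle1, Tsr1, Ltv1, Grwd1, Pno1, Utp20 and Mybbp1a. The 6 windows of 30 bases shown include both upstream sites, the site closest to a start (Pes1) and those of 3 genes whose values are given library by library (Tsr1, Pno1 and Mybbp1a), each written 5′ to 3′ on the strand of the gene with CACGTG in capitals.
Imp4: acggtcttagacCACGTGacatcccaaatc
Nop2: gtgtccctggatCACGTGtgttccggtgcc
Pes1: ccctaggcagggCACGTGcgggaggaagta
Tsr1: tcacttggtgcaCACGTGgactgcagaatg
Pno1: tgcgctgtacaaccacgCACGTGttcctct
Mybbp1a: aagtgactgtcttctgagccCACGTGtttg

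In the order shown, these windows lie at chr1:34439696-34439725 (plus strand), chr6:125131811-125131840 (plus), chr11:3963965-3963994 (plus), chr11:74898092-74898121 (plus), chr11:17211540-17211569 (minus) and chr11:72441347-72441376 (plus). The related hexamer CACGCG, or CGCGTG on the other strand, was found in 14 of the 44 genes, against 10.5% of all symbols. CGGAAG or CTTCCG, the core that ETS factors bind, was found in 25 of the 44 genes, against 18.8% of all symbols. Both CACGTG and this core lay in 1 window of 7 genes. Member windows were richer in G and C (median 58.5%) than all windows of the table (52.7%), and the part of base composition in these shares was not tested. A match describes the letters of the window and does not show that a factor binds there.

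Per length of a gene's exons, Npm1, the gene of the abundant nucleolar chaperone nucleophosmin, was the highest of the 52. Its mean was 1424 TPM (transcript abundance scaled for that length and library size) over the 20 libraries. Myc stood at 479 TPM and Ncl, which encodes nucleolin, at 466 TPM. The lowest was Wdr12, which encodes part of the PeBoW complex of large subunit assembly, at 10.6 TPM. Its partners in that complex, Pes1 and Bop1, stood at 123 and 116 TPM. These ranks depend on the exon length used. In counts scaled to library size only (CPM), Wdr12 averaged 35.2 in CD8 week 4, against 123.7 for Pes1 and 81.75 for Bop1. Polr1e (28.2) was then below Wdr12, and Ncl (1553) above Myc (364.6). Among the 4 genes of RNA polymerase I subunits in the list, Polr1c, whose protein is shared with RNA polymerase III, was the highest (84.95 TPM) and Polr1e the lowest (24.2 TPM). No member had fewer than 264 counts in any library.

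The libraries held 13264302 to 28342449 counts each. The sort and the labels were checked against cell markers: Cd8a and Cd8b1 summed to 988 to 2677 CPM (counts scaled to library size) in CD8 week 4 and 1236 to 2096 CPM in CD8 week 1 libraries, and to 1.603 to 30.7 CPM in CD4 week 3 and 4.12 to 10.1 CPM in CD4 week 1 libraries. Cd4 had no count in CD8 week 4, where Cd4 and Zbtb7b summed to 4.73 to 55.5 CPM. The myeloid marker Lyz2 had no count in any group, and the 6 myeloid markers summed to at most 1.78 CPM. NK cell markers summed to 392 to 682 CPM in CD8 libraries and to at most 46.7 CPM in CD4 libraries. Stromal markers summed to 60.8 to 250.5 CPM, B cell markers to at most 13.1 CPM and erythroid markers to at most 18.8 CPM. The summed level of 12 proliferation markers was 1347 to 1841 CPM in CD8 week 4 and 2543 to 5959 CPM in CD8 week 1, and 393 to 3004 CPM in CD4 week 3 and 2051 to 3993 CPM in CD4 week 1. The 3004 CPM was that of CD4 week 3 replicate 2, and the other libraries of that group held 393 to 1007 CPM. In a principal component analysis, 5 libraries are treated as apart from their groups: CD8 week 4 replicates 1 and 2, CD8 week 1 replicate 3, CD4 week 3 replicate 2 and CD4 week 1 replicate 2. Their distances on 2 components from the centre of the group's other libraries were 24.8, 31.4, 27.3, 44.8 and 31.5. These are not the 5 largest distances. CD4 week 3 replicate 4, which was not treated as apart, stood at 26.6, above CD8 week 4 replicate 1. The number in the title of a library falls into range A for CD8 replicates 1 to 3 and range B for CD8 replicates 4 and 5, each with both times, and CD4 libraries have a range of their own.

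The share of all counts that the 52 genes took together was 0.782 ± 0.124% in CD8 week 4 and 0.794 ± 0.155% in CD8 week 1, and 0.843 ± 0.0187% in CD4 week 3 and 0.785 ± 0.142% in CD4 week 1 (SD, n = 5 each). The CD8 libraries held 0.689, 0.621, 0.927, 0.822 and 0.852% at week 4, against 0.809, 0.756, 1.05, 0.676 and 0.676% at week 1. The CD4 libraries held 0.843, 0.860, 0.851, 0.812 and 0.851% at week 3, against 0.666, 0.627, 0.851, 0.805 and 0.978% at week 1. The groups overlapped in both cell types. The CD4 week 3 libraries lay close together, and the other groups each had libraries with low and with high shares. A share of RNA cannot tell fewer cells of one kind from less of the RNA per cell, and it does not measure the amount of RNA in a cell.

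**Figure D1:**
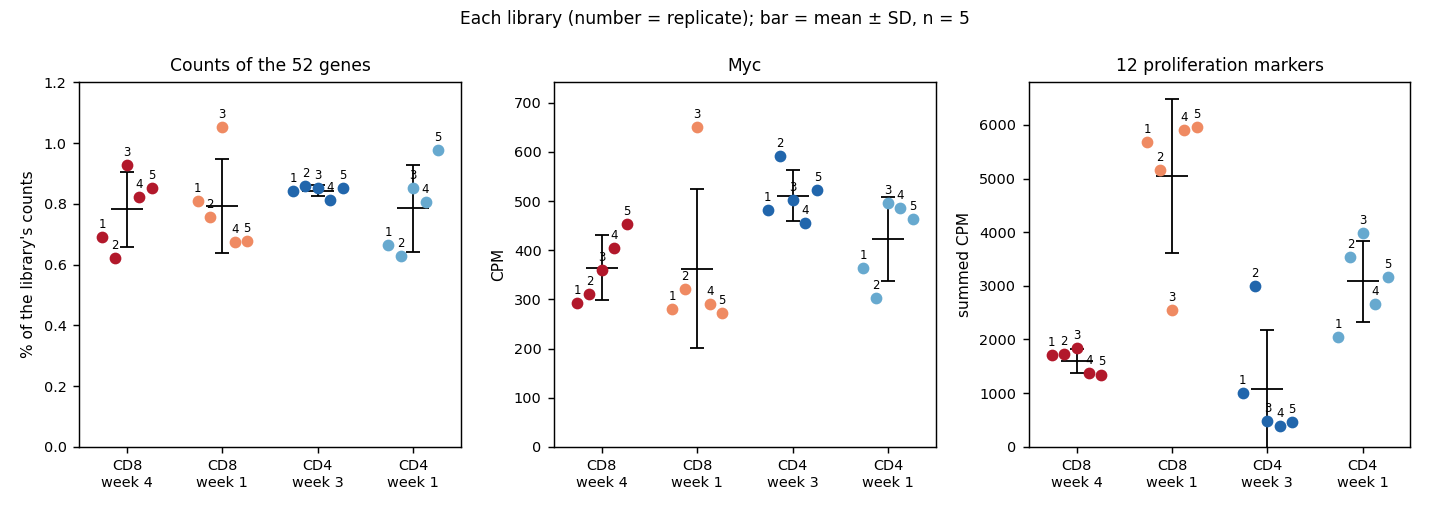
Share of each library's counts taken by the 52 genes (%, left), Myc (CPM, middle) and the summed level of 12 proliferation markers (CPM, right) in the 20 libraries. Points are libraries with their replicate number, and bars the mean ± SD of 5. CD8 week 1 replicate 3 had the highest share (1.05%) and the highest Myc (651 CPM) of all libraries, and the lowest proliferation sum of its group (2543 CPM).

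Within a group, single libraries held the lowest or the highest value for most of the members. At CD8 week 4, replicate 2 held the lowest value of the group for 45 of the 52 genes and replicate 3 the highest for 36. At CD8 week 1, replicate 3 held the highest value for 41 genes and replicates 4 and 5 the lowest for 27 and 19. At CD4 week 1, replicate 2 was the lowest for 46 genes and replicate 5 the highest for 43. Over all genes tested, the same libraries held the lowest value for 26.8% (CD8 week 4 replicate 2), 11.3% and 16.5% (CD8 week 1 replicates 4 and 5) and 26.3% (CD4 week 1 replicate 2) of genes and the highest for 23.2% (CD8 week 4 replicate 3), 36.8% (CD8 week 1 replicate 3) and 20.8% (CD4 week 1 replicate 5). At CD4 week 3, replicate 1 was the highest for 18 members and replicate 5 the lowest for 25, against 16.3% and 23.03% of all genes tested.

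The median SD of a member's log2(CPM + 0.5) was 0.31 at week 4 and 0.29 at week 1 among CD8 libraries, and 0.10 at week 3 and 0.32 at week 1 among CD4 libraries. For the 6235 tested genes with a mean of at least 30.2 CPM, the lowest mean of any member, these medians were 0.14 at week 4 and 0.16 at week 1 (CD8), and 0.14 at week 3 and 0.17 at week 1 (CD4). The members spread more than these genes in 3 groups and less in CD4 week 3. Since the same libraries were low or high for most members, their signs are not independent of each other.

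**Figure D2:**
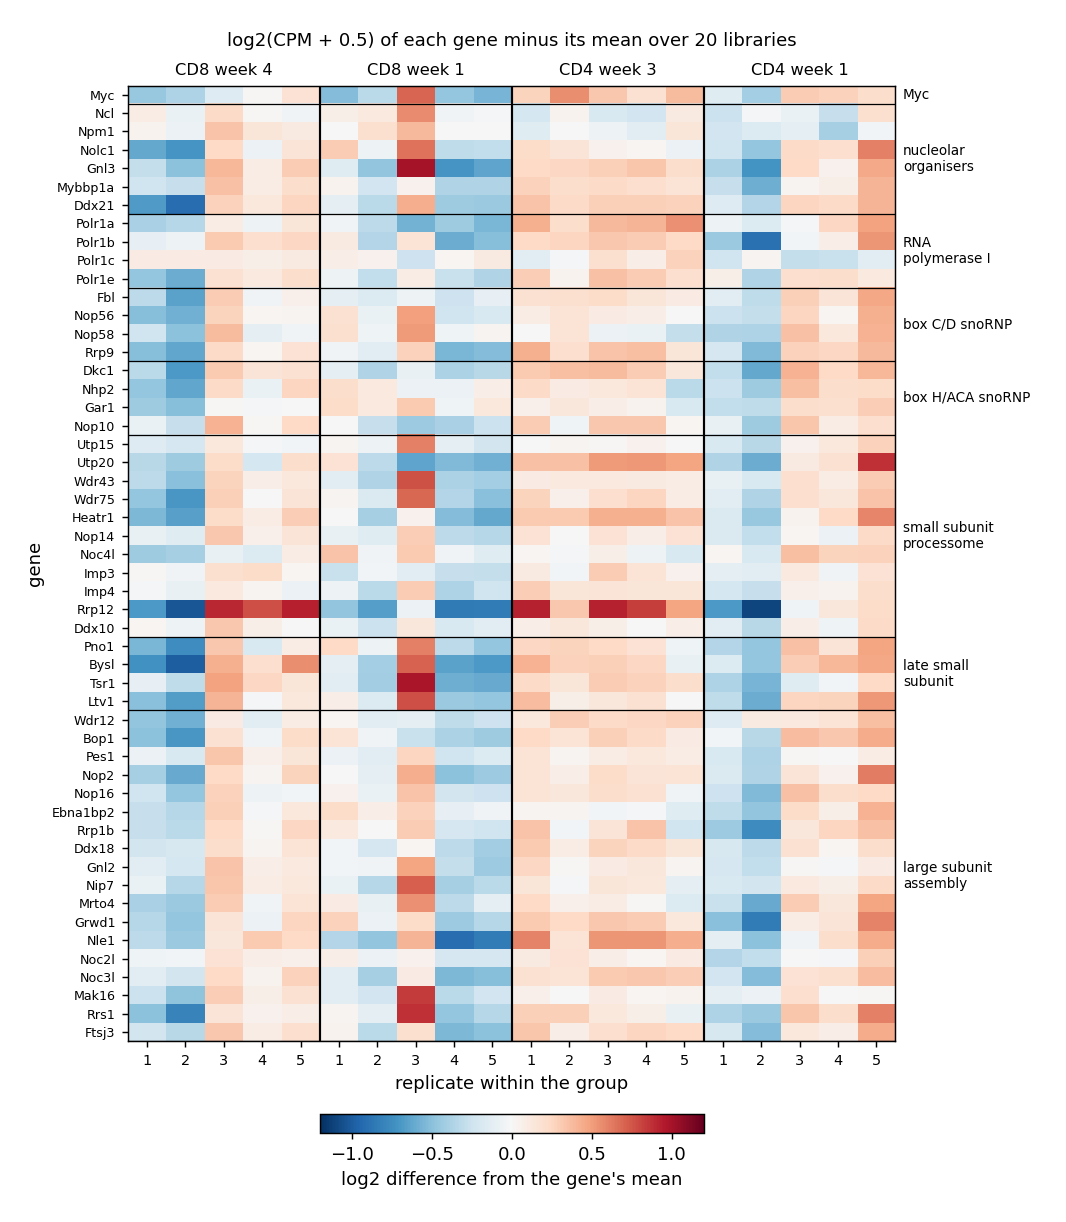
Level of each of the 52 genes in the 20 libraries, as log2(CPM + 0.5) minus the gene's mean over all libraries (red above, blue below). Rows are genes in order of role, columns are libraries by group and replicate. Whole columns differ: CD8 week 4 replicate 2 is low for 45 of 52 genes within its group, and CD8 week 1 replicate 3 is high for 41.

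The first comparison asked how the genes differed between week 4 and week 1 in CD8 cells. Rrp12 and Imp3, both with roles in small subunit production, were higher at week 4, and no member was lower (quasi-likelihood test of edgeR; p adjusted by Benjamini-Hochberg over 13290 genes and under 0.05). Among all genes tested, 17.1% were higher and 16.4% lower by the same rule. Of the 52 log2 fold changes, 31 were positive and 21 negative, with a median of 0.05 against 0.03 for all genes. The changes ran from -0.32 for Gar1 to 0.96 for Rrp12, with a median SE of 0.17, and 46 of the 52 lay within ± 0.3, against 50.1% of all genes.

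Myc averaged 365 ± 66.1 CPM in CD8 week 4 and 363 ± 162 CPM in CD8 week 1 libraries (SD, n = 5 each). It had 293, 311, 359.9, 404.5 and 454 CPM in CD8 week 4 libraries, against 280.3, 320.3, 651, 290.2 and 272 CPM in CD8 week 1 libraries. The groups overlapped, and the single week 1 value above all week 4 values was that of replicate 3. The log2 fold change was 0.01 (SE 0.21, adjusted p 0.984). It was 0.33 without CD8 week 1 replicate 3 (adjusted p 0.0808) and lay between -0.08 and 0.08 without any 1 of the other CD8 libraries. Myc lies on chromosome 15 of GRCm38 at 61985391 to 61990374 on the plus strand (ENSMUSG00000022346).

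Rrp12, whose yeast counterpart takes part in the export of both ribosomal subunits, had the largest log2 fold change of the 52 genes in CD8 cells. It had 43.9, 34.8, 134, 122 and 136 CPM in CD8 week 4 libraries, against 51.2, 44.8, 67.9, 39.2 and 39.6 CPM in CD8 week 1 libraries. Week 4 replicates 3 to 5 lay above every week 1 library, while week 4 replicates 1 and 2 lay within or below the week 1 range. The log2 fold change was 0.96 (1.94-fold, SE 0.34, adjusted p 0.0361). The adjusted p was 0.0598 to 0.0993 without any 1 of 7 libraries (CD8 week 1 replicates 1, 2, 4 and 5 and CD8 week 4 replicates 3, 4 and 5), and the log2 fold change was 1.43 (adjusted p 0.00095) without CD8 week 4 replicates 1 and 2. The call was also lost when CD8 libraries alone were fitted (0.95, adjusted p 0.0747) and with title range as a term (0.91, adjusted p 0.0558). Rrp12 lies on chromosome 19 at 41862852 to 41896153 on the minus strand (ENSMUSG00000035049).

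Imp3, which encodes a protein of the U3 small nucleolar ribonucleoprotein in the processome, was higher at week 4 by a smaller factor. It had 51.7, 49.7, 58.5, 59.7 and 52.02 CPM in CD8 week 4 libraries, against 42.6, 50.1, 46.9, 42.3 and 42.1 CPM in CD8 week 1 libraries. The ranges overlapped only through week 1 replicate 2 and week 4 replicate 2. The log2 fold change was 0.28 (1.21-fold, SE 0.08, adjusted p 0.0164), and the adjusted p was 0.0124 to 0.0481 without any 1 CD8 library. Imp3 lies on chromosome 9 at 56937475 to 56938398 on the plus strand (ENSMUSG00000032288).

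Of the 9 other members of the small subunit processome, none passed the test in CD8 cells. Noc4l had 43.5, 44.3, 55.0, 52.2 and 62.4 CPM in CD8 week 4 libraries, against 74.7, 57.1, 73.0, 57.0 and 53.2 CPM in CD8 week 1 libraries, and the groups overlapped (log2 fold change -0.29, adjusted p 0.0743). Ddx10, a helicase gene, stood at 0.18 and Utp20 at 0.26 (adjusted p 0.17 and 0.387). The 11 genes of this complex had a median of 0.17.

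Genes of the nucleolus and of RNA polymerase I did not pass the test either. Mybbp1a, which encodes a nucleolar protein that binds MYB, had 297.5, 289, 446, 372.5 and 405 CPM in CD8 week 4 libraries, against 360.2, 298, 363, 272 and 273 CPM in CD8 week 1 libraries (log2 fold change 0.21, adjusted p 0.309). Nolc1, which encodes a chaperone of small nucleolar ribonucleoproteins, had 95.4, 89.1, 172.5, 139 and 163 CPM in CD8 week 4 libraries, against 180.2, 140.0, 229.7, 118 and 119 CPM in CD8 week 1 libraries (log2 fold change -0.26, adjusted p 0.389). For both genes, week 4 replicates 1 and 2 were the lowest of their group and the groups overlapped.

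The largest subunit gene of RNA polymerase I, Polr1a, had 87.0, 89.7, 121, 109 and 126 CPM in CD8 week 4 libraries, against 110.5, 91.7, 76.6, 84.8 and 77.6 CPM in CD8 week 1 libraries. Polr1b, which encodes the second largest subunit, had 65.7, 67.4, 87.5, 80.9 and 83.9 CPM in CD8 week 4 libraries, against 76.1, 55.0, 79.0, 46.4 and 49.2 CPM in CD8 week 1 libraries. Both pairs of groups overlapped, and the log2 fold changes were 0.27 (SE 0.13, adjusted p 0.126) and 0.33 (SE 0.20, adjusted p 0.207). All 4 polymerase genes had a positive change, with a median of 0.19.

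None of the 8 genes of box C/D and box H/ACA ribonucleoproteins passed in CD8 cells. Box C/D ribonucleoproteins include the particles that methylate ribosomal RNA. Among the genes of their proteins, Nop56 and Nop58 stood at -0.17 and -0.21 and the methyltransferase gene Fbl at 0.05 (adjusted p 0.459, 0.356 and 0.821). Nop58 had 153, 129, 235, 167 and 175 CPM in CD8 week 4 libraries, against 206, 174, 257.5, 174 and 185 CPM in CD8 week 1 libraries. Nop56 had 126, 120.4, 216, 183 and 184 CPM in CD8 week 4 libraries, against 204, 169.5, 252, 152 and 158 CPM in CD8 week 1 libraries. In both genes the week 1 values included the highest and the week 4 values the lowest, with overlap. Other genes overlap both on the same strand (4 for Nop56, among them Snord57, and 1 for Nop58), and reads that overlapped several genes were not counted.

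Box H/ACA ribonucleoproteins convert uridine to pseudouridine. Among the genes of their proteins, Nop10 and Gar1 had changes of similar size and opposite sign. Nop10 had 72.5, 63.1, 102, 77.5 and 90.3 CPM in CD8 week 4 libraries, against 76.4, 63.3, 56.5, 58.3 and 64.0 CPM in CD8 week 1 libraries (log2 fold change 0.35, adjusted p 0.0658). Gar1 had 35.5, 33.5, 48.6, 47.3 and 48.1 CPM in CD8 week 4 libraries, against 55.9, 52.1, 59.6, 46.2 and 52.3 CPM in CD8 week 1 libraries (log2 fold change -0.32, adjusted p 0.0691). The groups overlapped for both genes, and neither passed, although DESeq2 called Gar1 lower (-0.34, adjusted p 0.0492). The synthase gene Dkc1 stood at 0.23 (adjusted p 0.376) and Nhp2 at -0.15 (adjusted p 0.524).

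The late factors of the small subunit and the factors of the large subunit did not pass in CD8 cells. Tsr1, a gene of late small subunit maturation, had 99.4, 86.2, 149.5, 127 and 118 CPM in CD8 week 4 libraries, against 97.2, 79.7, 210.0, 70.7 and 69.7 CPM in CD8 week 1 libraries. Pno1, which encodes an RNA-binding factor of small subunit assembly, had 23.9, 20.8, 44.3, 31.1 and 37.6 CPM in CD8 week 4 libraries, against 41.6, 33.9, 53.9, 28.3 and 25.4 CPM in CD8 week 1 libraries. Week 1 replicate 3 was the highest of the 10 libraries for both. Their log2 fold changes were 0.14 (adjusted p 0.7) and -0.22 (adjusted p 0.49).

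Of the 18 large subunit genes, 10 had positive and 8 negative changes in CD8 cells, with a median of 0.04. Noc3l had 40.3, 37.7, 51.8, 45.2 and 53.1 CPM in CD8 week 4 libraries, against 40.3, 33.3, 47.1, 30.1 and 30.7 CPM in CD8 week 1 libraries (log2 fold change 0.33, adjusted p 0.108). Ddx18, a helicase gene, had 54.3, 55.2, 73.4, 64.5 and 70.8 CPM in CD8 week 4 libraries, against 61.6, 55.0, 64.2, 50.8 and 47.0 CPM in CD8 week 1 libraries (log2 fold change 0.19, adjusted p 0.209). Both genes overlapped between the times. Nle1 stood at 0.37 (adjusted p 0.218), Rrs1 at -0.24 (0.48), and Pes1, Bop1 and Wdr12 at 0.13, 0.05 and -0.02 (0.38, 0.849 and 0.921).

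**Figure D3:**
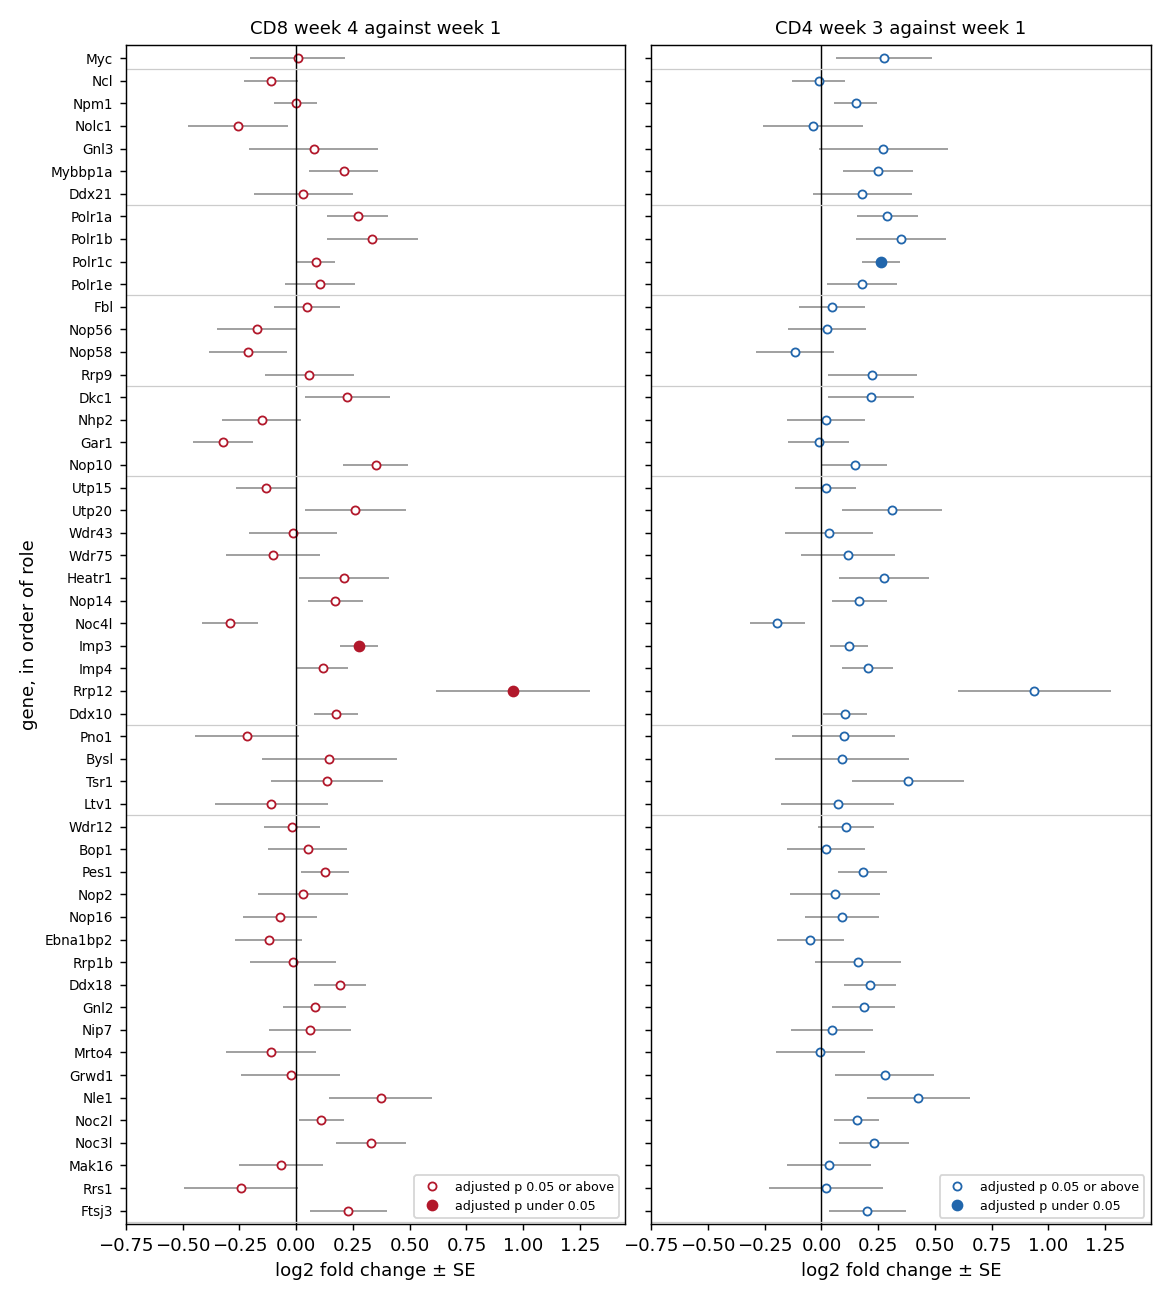
Log2 fold change with its SE for each of the 52 genes, in CD8 cells (week 4 against week 1, left) and CD4 cells (week 3 against week 1, right), in order of role. Filled points had an adjusted p under 0.05: Imp3 (0.28) and Rrp12 (0.96) in CD8 cells and Polr1c (0.26) in CD4 cells.

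The CD8 change was also computed within each range of title numbers. With all 20 libraries in 1 fit and separate means for each range, the median log2 fold change of the members was -0.21 in range A (replicates 1 to 3) and 0.46 in range B (replicates 4 and 5), against 0.01 and 0.04 for all genes. In range A, 36 of the 52 changes were negative, and in range B 50 were positive. By sign, 34 genes were negative in A and positive in B, 16 positive in both, 2 negative in both and none positive in A and negative in B.

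Of the members, range A called 1 lower (Noc4l, log2 fold change -0.52, adjusted p 0.0264) and none higher, against 5.46% of all genes lower and 6.82% higher. Range B called 3 higher (Rrp12, Nle1 and Imp3) and none lower, against 7.84% of all genes higher. Rrp12 stood at 0.38 in range A (adjusted p 0.556) and 1.71 in range B (0.0347). Nle1 stood at -0.11 in range A (0.792) and 1.17 in range B (0.0183), and Imp3 at 0.20 (0.228) and 0.40 (0.0494). Myc stood at -0.38 in range A (adjusted p 0.308) and 0.61 in range B (0.159).

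The difference of the ranges' changes itself passed the test for none of the members, and 19 of the 52 had an unadjusted p under 0.05 (edgeR's quasi-likelihood test, lowest adjusted p 0.502). Over all genes, 0.00752% passed, which is 1 gene, and 7.9% had an unadjusted p under 0.05. The difference, range B minus range A, was positive for 51 members with a median of 0.59 on the log2 scale, and for 50.8% of all genes. It was 0.98 for Myc (SE 0.38, adjusted p 0.563), 1.51 for Bysl (SE 0.53, 0.563) and 1.28 for Nle1 (SE 0.38, 0.502). With the libraries of a range fitted alone, where the spread comes from 3 or 2 libraries a group, range A called no member, against 1.85% of all genes higher, and range B called 37 members higher, against 24.1% of all genes higher.

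The CD8 libraries apart from their groups fall in these ranges unevenly: CD8 week 4 replicates 1 and 2 and CD8 week 1 replicate 3 are all in range A. Without these 3 libraries and CD4 week 3 replicate 2 (4 libraries, picked once their values were known), 23 of the 52 members were higher at CD8 week 4 and none lower, against 22.2% of all genes higher. The median change was then 0.37. Within their groups, CD8 week 4 replicate 2 was the lowest for 45 members and CD8 week 1 replicate 3 the highest for 41. Leaving out such libraries raises the change by construction, so calls made without them are not a test of a rise. Myc was among the 23 (0.48, adjusted p 0.0145), with Rrp12 (1.58, 0.000174), Mak16 (0.42, 0.000826), Nle1 (0.87, 0.00146), Wdr43 (0.48, 0.00218), Tsr1 (0.73, 0.00222) and Bysl (0.85, 0.00447). Leaving out CD4 week 1 replicate 2 as well (all 5 libraries, also picked after seeing the values) gave 29 members higher and none lower, against 24% of all genes higher, with Myc again called (0.48, adjusted p 0.0024). Without CD8 week 1 replicate 3 alone, 8 members were called: Tsr1, Nle1, Imp3, Rrp12, Noc3l, Nop14, Imp4 and Nip7, all higher, against 21.1% of all genes higher. In CD8 cells at week 4 the 12 proliferation markers were all lower than at week 1, and their sum was lowest within week 1 in replicate 3 (2543 CPM, against 5161 to 5959 CPM in the others). The part of proliferation, of title range or of these libraries in the members' levels was not tested.

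**Figure D4:**
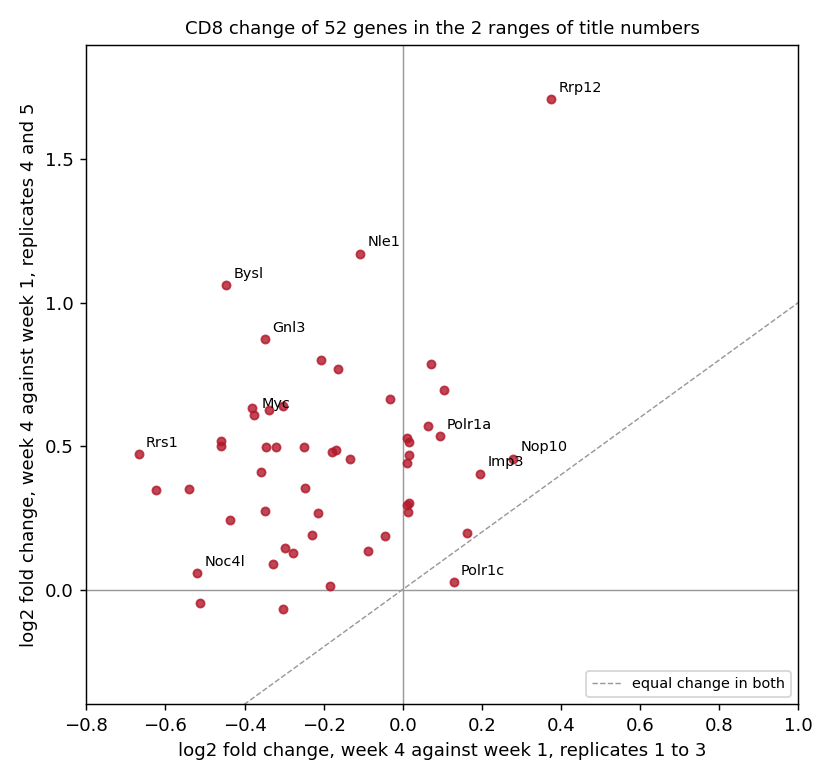
Log2 fold change of the 52 genes in CD8 cells, week 4 against week 1, in range A of the title numbers (replicates 1 to 3, horizontal) and range B (replicates 4 and 5, vertical). Each point is a gene, and the dashed line marks equal change. Of the 52 points, 51 lie above the line, and 34 lie at negative values in A and positive values in B.

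CD4 cells were compared in the same way, week 3 with week 1. Polr1c was higher at week 3 and no member was lower, while 7.67% of all genes were higher and 8.8% lower. Of the 52 genes 45 had a positive and 7 a negative log2 fold change, with a median of 0.15 against 0.01 for all genes. Of the 52 changes 47 lay within ± 0.3, against 58.9% of all genes. At week 1, replicate 2 was the lowest of its group for 46 members and replicate 5 the highest for 43.

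Polr1c, whose protein is shared by RNA polymerases I and III, had 56.1, 60.9, 70.2, 65.2 and 74.5 CPM in CD4 week 3 libraries, against 52.1, 62.9, 50.4, 51.0 and 56.5 CPM in CD4 week 1 libraries. The groups overlapped: week 1 replicate 2 lay above week 3 replicates 1 and 2. The log2 fold change was 0.26 (1.198-fold, SE 0.08, adjusted p 0.0398). The adjusted p was 0.0539 to 0.115 without any 1 of 7 libraries (CD4 week 1 replicates 1, 3, 4 and 5 and CD4 week 3 replicates 3, 4 and 5). The call was also lost when CD4 libraries alone were fitted (adjusted p 0.11), with library totals as the scaling (0.0507) and with no filter on low counts (0.104). Polr1c lies on chromosome 17 at 46243920 to 46248054 on the minus strand (ENSMUSG00000067148).

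Rrp12 had the largest log2 fold change of the 52 genes in CD4 cells too. It had 136, 89.3, 136, 127 and 99.2 CPM in CD4 week 3 libraries, against 43.9, 33.0, 68.5, 78.4 and 82.8 CPM in CD4 week 1 libraries. The groups did not overlap, and the lowest week 3 value was that of replicate 2, one of the libraries apart. The log2 fold change of 0.94 (1.92-fold, SE 0.34) did not pass (adjusted p 0.063), and its adjusted p was 0.0412 without CD4 week 3 replicate 2, 0.137 at most without any other library and 0.035 by DESeq2. It passed, as the only member, when CD4 libraries alone were fitted (0.93, adjusted p 0.0441) and with CD8 week 4 replicates 1 and 2 left out (0.94, 0.0118), where Polr1c did not (0.0539). Without the 5 libraries apart, 3 members were higher and none lower (Rrp12, Polr1c and Nle1), against 15.3% of all genes higher, and the median change was 0.07.

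Myc had 482, 592, 503, 455.9 and 523 CPM in CD4 week 3 libraries, against 364, 302, 497, 485 and 463 CPM in CD4 week 1 libraries. The groups overlapped, and week 1 replicates 1 and 2 lay below every week 3 library. The log2 fold change was 0.28 (SE 0.21, adjusted p 0.377), and 0.18 to 0.34 without any 1 CD4 library. Polr1a and Polr1b stood at 0.29 and 0.35 (adjusted p 0.141 and 0.23). All 4 polymerase genes had a positive change, with a median of 0.27.

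None of the other members passed in CD4 cells. Nle1 stood at 0.43 (SE 0.23, adjusted p 0.195), Tsr1 at 0.38 (0.292), Mybbp1a at 0.25 (0.265), Ddx18 at 0.21 (0.202) and Nop10 at 0.15 (0.497). Gar1, Nolc1 and Nop56 lay within 0.04 of 0 (adjusted p 0.957, 0.929 and 0.937). Noc4l, the most negative, stood at -0.19 (0.279) and Nop58 at -0.12 (0.671).

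**Figure D5:**
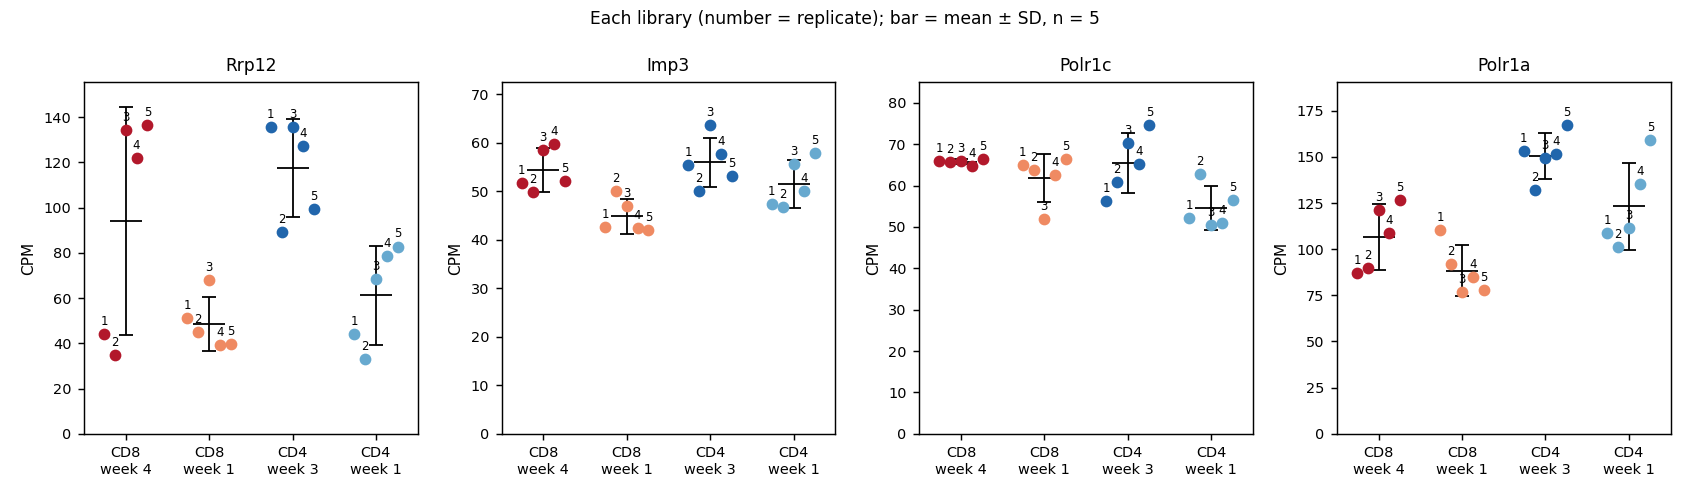
Rrp12, Imp3, Polr1c and Polr1a in the 20 libraries (CPM), with the replicate number at each point and the mean ± SD of 5 libraries as bars. Rrp12 is at 122 to 136 CPM in CD8 week 4 replicates 3 to 5 and at 34.8 and 43.9 CPM in replicates 2 and 1. The mean of Polr1a is lower in CD8 than in CD4 libraries of the same stage, with no overlap between CD8 week 4 and CD4 week 3.

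The changes of CD8 and CD4 cells were then compared in an interaction test, the CD8 change minus the CD4 change. None of the 52 members passed, none had an unadjusted p under 0.05, and none passed with DESeq2 (edgeR's quasi-likelihood test, lowest adjusted p 0.563). Of all genes tested, 0.655% passed in either direction. The difference was positive for 12 and negative for 40 genes, with a median of -0.09 and a median SE of 0.24. It was 0.02 for Rrp12 (SE 0.47), -0.27 for Myc (SE 0.30), 0.16 for Imp3 (SE 0.12) and -0.17 for Polr1c (SE 0.12). With these errors the test does not show that CD8 and CD4 cells changed alike. Without the 4 libraries left out of the CD8 comparison, 1 member passed (Mak16, 0.39, adjusted p 0.0483), against 5.45% of all genes, and the median was 0.23. Without all 5, the median was 0.32 and 3 members passed (Wdr43, Bysl and Mak16), against 8.43% of all genes. Leaving out libraries that were low or high for most members shifts this difference by construction.

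CD8 cells were next set against CD4 cells at the same stage. The CD8 and CD4 libraries differ in their title numbers and, in the later pair, in the length of expansion (25 and 18 days), so these cannot be told apart from cell type. At week 1, Npm1 was higher and Polr1a lower in CD8 cells, while 19.1% of all genes were higher and 19% lower. Npm1 had 1209, 1376, 1577, 1196 and 1198 CPM in CD8 week 1 libraries, against 1023, 1073, 1108, 912 and 1176 CPM in CD4 week 1 libraries. The groups did not overlap (log2 fold change 0.31, SE 0.10, adjusted p 0.0164), and the call was lost without CD4 week 1 replicate 4 (adjusted p 0.0518). Npm1 lies on chromosome 11 at 33152287 to 33163206 on the minus strand (ENSMUSG00000057113).

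Polr1a was lower in CD8 cells at both stages. It had 110.5, 91.7, 76.6, 84.8 and 77.6 CPM in CD8 week 1 libraries, against 109, 101, 112, 135 and 159 CPM in CD4 week 1 libraries, with only CD8 replicate 1 inside the CD4 range (log2 fold change -0.48, SE 0.13, adjusted p 0.00871). In the later pair it had 87.0, 89.7, 121, 109 and 126 CPM in CD8 week 4 libraries, against 153, 132, 149.5, 152 and 167 CPM in CD4 week 3 libraries, with no overlap (log2 fold change -0.50, SE 0.13, adjusted p 0.00803). The adjusted p was at most 0.0299 at week 1 and 0.0284 in the later pair without any 1 library. Without CD8 week 4 replicates 1 and 2 together, the later difference was -0.34 (adjusted p 0.109). Polr1a lies on chromosome 6 at 71909053 to 71984935 on the plus strand (ENSMUSG00000049553).

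In the later pair, Wdr12 was lower in CD8 cells along with Polr1a and no member was higher, while 15% of all genes were lower and 17.7% higher. Wdr12 had 28.5, 26.4, 42.5, 36.2 and 42.3 CPM in CD8 week 4 libraries, against 43.2, 48.9, 46.5, 47.2 and 48.0 CPM in CD4 week 3 libraries. The groups did not overlap, and CD8 replicates 1 and 2 were the lowest (log2 fold change -0.41, SE 0.12, adjusted p 0.0151). The adjusted p was 0.0505 without CD8 week 4 replicate 1 and 0.18 without replicates 1 and 2. Wdr12 lies on chromosome 1 at 60069785 to 60098645 on the minus strand (ENSMUSG00000026019). Over all members, 47 of the 52 differences were negative, with a median of -0.20 against 0.01 for all genes, and without CD8 week 4 replicates 1 and 2 the median was 0.01 and 24 were negative.

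Myc had 293, 311, 359.9, 404.5 and 454 CPM in CD8 week 4 libraries, against 482, 592, 503, 455.9 and 523 CPM in CD4 week 3 libraries. The groups did not overlap, by a narrow gap between 453.9 and 455.9 CPM. The log2 difference of -0.49 (SE 0.21) did not pass (adjusted p 0.0834, and 0.0553 to 0.185 without any 1 library). With only these 2 groups in the fit it passed (-0.51, adjusted p 0.0118). At week 1 the difference was -0.22 (adjusted p 0.428), with CD8 replicate 3 above every CD4 library, and -0.54 without that replicate (adjusted p 0.00629). At week 1, 7 members were called without CD8 replicate 3 (45% of all genes), 9 without CD4 replicate 2 (38.9%) and 2 with all libraries (38.1%). Without the 5 libraries apart it was 30 (57.7% of members), against 52.9% of all genes called in either direction. Of the 30, 28 were lower in CD8 cells, and the share of all genes called lower in this fit is not given here. In the same fit, 48.9% of all genes and 3 of the 52 members had a positive difference. The 5 include CD8 week 1 replicate 3, highest of its group for 41 members, and CD4 week 1 replicate 2, lowest for 46. Leaving these out lowers the difference by construction.

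Other genes of the pathway, taken from lists of names, were tested in the same fits, in which 17.1% of all genes were higher and 16.4% lower at CD8 week 4, and 7.67% higher and 8.8% lower at CD4 week 3. Of 13 tested partners and antagonists of MYC, 4 were higher and 2 lower at CD8 week 4, and 1 was higher and 2 lower at CD4 week 3. Mxd4, which encodes a repressor that pairs with MAX in place of MYC, was higher in both cell types (log2 fold change 1.46 in CD8 cells, adjusted p 2.25e-05; 0.64 in CD4 cells, 0.0173). Mnt, another such repressor, was higher in CD8 cells (0.35, adjusted p 0.00409) and Ruvbl2 was lower (-0.39, 0.0231). Other genes of the Mxd family, which encode repressors of the same kind as Mxd4, went the other way. Mxd3 was lower in both cell types (-1.67 and -1.83, adjusted p 0.0385 and 0.046) and Mxd1 lower in CD4 cells (-1.08, 0.00867).

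Of 37 other small subunit factors, 6 were higher and 2 lower at CD8 week 4 and 1 was lower at CD4 week 3. They included Nat10, which acetylates ribosomal RNA (0.60, adjusted p 0.0034), Rrp36 (0.19, 0.0314), Nop9 (-0.30, 0.00671) and Nol10 (-0.46, 0.0343) in CD8 cells and Emg1 (-0.17, 0.0475) in CD4 cells. Of 44 other large subunit factors, 4 were higher and 3 lower at CD8 week 4 and 1 was higher at CD4 week 3. Mdn1, a very large ATPase that strips factors from the large subunit precursor, was higher in both cell types (1.10, adjusted p 0.0031, and 0.97, 0.0145). Ddx55 (0.26, 0.0129) was higher and Urb2 (-0.48, 0.0109) and Pelp1 (-0.40, 0.0257) were lower in CD8 cells.

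Of 13 other RNA polymerase I genes, Taf1c was higher (0.33, adjusted p 0.033) and Tcof1, the gene of the nucleolar protein treacle, lower (-0.26, 0.0299) at CD8 week 4, and none passed in CD4 cells. Of 22 RNA polymerase III genes, 2 were higher and 3 lower at CD8 week 4 and none passed in CD4 cells. They included the initiation factor gene Brf1 (0.42, adjusted p 0.000846) and the repressor gene Maf1 (0.31, 0.0247), and with lower levels Gtf3c5 (-0.60, 0.00121) and Polr3k (-0.36, 0.0145). Of 13 tested exosome genes, whose complex trims ribosomal RNA precursors, 1 was higher and 4 lower at CD8 week 4, and Exosc3 was lower in both cell types (-0.50, 0.00188, and -0.45, 0.00955).

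Of 45 genes that MYC is known to activate outside the nucleolus, 13 were lower and 1 higher at CD8 week 4, with a median of -0.28, and 2 were lower and none higher at CD4 week 3, with a median of -0.12. The shares of all genes lower by the same rule were 16.4% in CD8 and 8.8% in CD4 cells. The amino acid transporter gene Slc7a5 stood at -1.32 (adjusted p 0.000138) and Rcc1, a regulator of the GTPase Ran, at -1.11 (0.000947) in CD8 cells. In CD4 cells Rcc1 stood at -0.81 (0.0141) and the cap-binding factor gene Eif4e at -0.35 (0.0435). Ccnd2, which encodes a cyclin of the G1 phase, was higher at CD8 week 4 (0.54, 0.00788). Of the proliferation markers, all 12 were lower in CD8 cells and 6 of 12 in CD4 cells. The part of proliferation in the values of this list was not tested.

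The changes were also set out by promoter letters. In CD8 cells 7 of the 11 genes with CACGTG in the window had a positive change, with a median log2 fold change of 0.12, against 19 of the 33 genes whose window lacked it, with a median of 0.06. In CD4 cells all 11 had a positive change, with a median of 0.21, against 26 of 33 with a median of 0.12. Of all genes tested, 52.9% had a positive change in CD8 cells and 51% in CD4 cells. These signs are not independent, since CD4 week 1 replicate 2 was the lowest of its group for 46 of the 52 members. The part of CACGTG in the changes was not tested. None of the 3 genes called in the culture comparisons is among the 11, and Rrp12 had no window in the table.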

How the data were processed

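The 20 libraries of mouse T cells were made from polyadenylated RNA with a directional kit, per the labels' protocols. The authors deposited raw read counts per gene, made with featureCounts 1.6.3 (reverse strand, annotation GENCODE M12, build GRCm38), per the file headers. STAR and mm10 are named in the submitters' processing notes. Reads that mapped to several places or overlapped several genes were not counted, per the file headers. This may affect Ncl, Nop56 and Nop58 (other genes on the same strand) and Mrto4 (1 named pseudogene), and the effect was not measured. No column of values was left unused (0). CD8 libraries had 18292990 to 28342449 counts at week 4 and 13264302 to 28032274 at week 1, and CD4 libraries 22464430 to 24029521 at week 3 and 19641654 to 24217103 at week 1. No pair of replicates agreed within counting noise (chi-square per degree of freedom 6.31 to 154 in 40 pairs).

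Ensembl IDs were matched to symbols for 49326 of 49671 genes. Genes with enough counts (filterByExpr) were tested with edgeR 4.0.16 (R 4.3.3): trimmed mean scaling, a quasi-likelihood fit of 4 group means and 5 contrasts, with Benjamini-Hochberg adjustment over 13290 genes. CPM values use the trimmed mean library sizes, except the sums of cell type markers (proliferation apart), which use library totals. TPM values divide counts by the length in the table. Replicates were numbered in accession order, which pairs nothing. Any member could be named. Values per library are given for Myc and for the 2 members of each role with the smallest adjusted p in the CD8 culture comparison, and also for Noc4l, Polr1c, Npm1 and Wdr12, which were chosen after their values were seen. Of each other list, up to 2 genes with the smallest adjusted p in each direction could be named. The members, lists and rules were chosen with earlier results of these data known. DESeq2 1.42.0 was an alternative test, beside other scalings, filters, subsets of libraries and each library left out. The tests were tried on simulated data with known changes.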

Additional observations from a re-analysis of the deposited data

Results flagged for a closer look

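In 2 of 64 groups of 5 libraries examined, 1 library lay far from the other 4 (a gap above 0.71 of the group's range, which chance gives in about 1 group in 20). Both were CD8 week 1 replicate 3. Myc stood there at 651 CPM, with the next library at 320.3 CPM (gap 0.873 of the range), and Tsr1 at 210.0 CPM, with the next at 97.2 CPM (gap 0.804). That library also had the lowest sum of proliferation markers in its group (2543 CPM) and the highest value of its group for 41 of the 52 members. The part of these in the values was not tested.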

How the results depend on the processing

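No paired analysis was possible because the replicate numbers follow accession order and the labels tie no library of one group to a library of another. Beside each count of members called, the share of all genes called in that fit is given in brackets. At CD8 week 4 against week 1 it was 2 with all libraries (33.5%), 1 with the 2 groups alone (32.8%; Imp3, Rrp12 being lost), 1 with a term for title range (33%; the same), 3 with DESeq2 (31.2%; Gar1 added), 0 in range A alone (4.17%), 37 in range B alone (49.2%), 1 in range A with all libraries in the fit (12.3%), 4 without CD8 week 4 replicates 1 and 2 (29.3%), 23 without these, CD8 week 1 replicate 3 and CD4 week 3 replicate 2 (the 4 libraries; 43.2%), and 29 when CD4 week 1 replicate 2 was left out too (the 5 libraries; 46.7%). Leaving out 1 library gave 1 to 8 (26.9 to 39.8%), the 8 coming from the fit with 39.8%. For CD4 cells the count was 1 (16.5%), 0 with library totals (16.4%) or with no filter (6.55%), 4 without the 4 libraries (34.7%), 3 without the 5 (33.8%), 2 with DESeq2 (17.7%) and 0 to 2 without 1 library (8.11 to 27.1%). The single CD4 call was Rrp12 in place of Polr1c with the 2 groups alone (9.29%) and without CD8 week 4 replicates 1 and 2 (16.5%). For CD8 against CD4 cells at week 1 it was 2 (38.1%), 4 without CD8 week 4 replicates 1 and 2 (38.5%), 14 without the 4 libraries (50.8%), 30 without the 5 (52.9%) and 1 to 9 without 1 library (32.1 to 45%). For CD8 week 4 against CD4 week 3 it was 2 (32.7%), 6 with the 2 groups alone (31.5%), 0 without CD8 week 4 replicates 1 and 2 (18.9%), 1 without the 4 libraries (34.6%) and 1 to 3 without 1 library (25.5 to 40.4%). The 1 call without the 4 libraries was neither Polr1a nor Wdr12 but Npm1, higher in CD8 cells (0.27, adjusted p 0.0451 by edgeR's quasi-likelihood test). Without the 5 libraries it was 2 (37.9%), Npm1 higher (0.27) and Polr1a lower (-0.36) in CD8 cells. The difference of the changes called 0 (0.655%), 1 without the 4 libraries (5.45%) and 3 without the 5 (8.43%). Without Ncl and Npm1 the other members took 0.4999% of counts in CD8 week 4 and 0.4913% in CD8 week 1, and 0.587% in CD4 week 3 and 0.535% in CD4 week 1.

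Some changes that had not passed turned sign, with log2 fold changes as follows. In CD8 cells Myc was -0.0064 with DESeq2 size factors in edgeR, -0.0283 with library totals, -0.0044 with the 2 groups alone, -0.0070 with DESeq2, -0.3859 in range A alone, -0.3752 in range A with all libraries, and -0.0824 to 0.3268 without 1 library. Tsr1 was -0.2169 in range A alone and -0.2072 with all libraries. Positive values replaced negative ones for Nolc1, Nop56 and Pno1 in range B alone (0.3283, 0.2252 and 0.3274), in range B with all libraries (0.3471, 0.2437 and 0.3513), without CD8 week 4 replicates 1 and 2 (0.0066, 0.0552 and 0.0407), without the 4 libraries (0.1817, 0.1860 and 0.2200) and without the 5 (0.1818, 0.1861 and 0.2195), and for Nop58 without the 4 or 5 (0.0597 and 0.0598). In CD4 cells Gar1 was 0.0028 with the 5 CPM filter and -0.0889 to 0.0593 without 1 library, and the same ranges were -0.1520 to 0.1186 for Nolc1, -0.0123 to 0.2183 for Pno1 and -0.0511 to 0.1331 for Nop56. Nop56 was -0.0062 with library totals, -0.0103 without the 4 libraries and -0.0860 without the 5, where Pno1 was -0.0507. The cause of these differences was not tested. Over the 37 pairs of a gene and a comparison so examined, 720 values kept direction and side of the threshold, 41 passed it only in the alternative, 31 no longer passed and 45 turned sign. Every member had at least 264 counts in each library.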
